A study of Mus musculus with 6 samples.

Results

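The genes described here are the 9 subunit genes of the actin-related protein 2/3 (Arp2/3) complex, Actr2, Actr3, Arpc1a, Arpc1b, Arpc2, Arpc3, Arpc4, Arpc5 and Arpc5l, together with Was, whose product WASP switches the complex on. They were taken by symbol as the known parts of the complex and its activator, with earlier results of these data known, and all 10 were found among the 32285 genes of the count table. Expression was measured by bulk RNA-Seq in Tregs, the CD4+ T cells that restrain immune responses, sorted as CD4+CD25+ cells from spleens of C57BL/6 mice, with 3 WT and 3 KO libraries. The KO mice were ERCre Zfp335 fl/fl: both copies of Zfp335, a zinc finger transcription factor gene, carry loxP sites, and the Cre recombinase is fused to a mutated estrogen receptor that lets it act only after tamoxifen. According to the methods, the WT mice were ERCre mice with intact Zfp335, and both groups were given tamoxifen at 10 mg/mL from an age of 6 weeks, on days 1, 3 and 5, and were killed on day 7. The sample labels instead call the controls littermates of wild type and say nothing of tamoxifen. If the controls lacked Cre or tamoxifen, effects of these agents cannot be told apart from those of the deletion. No cell type restriction of this Cre is named, so other cells of the mice could have lost Zfp335 as well. Nothing in the labels says whether a library came from 1 mouse or a pool, so the p values measure the spread between these libraries only.

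The Arp2/3 complex starts new actin filaments as branches on the side of older ones. Actr2 and Actr3 encode the actin-like pair that serves as the seed of the branch, and the other subunits hold the pair and bind the mother filament. The complex has 7 positions, and at the Arpc1 and Arpc5 positions either of a pair of related proteins can sit, Arpc1a or Arpc1b and Arpc5 or Arpc5l. WASP, made in blood cells, relays signals from the T cell receptor and the GTPase Cdc42 to the complex. In T cells, branched actin shapes the contact with the antigen-presenting cell, migration and the traffic of receptors to the surface. The study followed Actr2 as a candidate gene downstream of Zfp335. It reported lower Actr2 RNA in resting and effector Tregs without Zfp335 by single-cell RNA-Seq. Lower Actr2 RNA was also reported in Tregs of heterozygous Foxp3Cre/+ Zfp335 fl/fl females and in ERCre Zfp335 fl/fl Tregs, the KO genotype used here. That last report may rest on these same libraries, so it cannot be taken as independent of the values below. By ChIP-Seq, the study found Zfp335 bound at the Actr2 promoter in WT Tregs. Overexpression of Actr2 did not rescue the lowered share of ICOS+ effector Tregs in the study. The comparison of KO with WT here asks how the RNA of Actr2 and of its partners differed once Zfp335 had been deleted.

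The 10 genes lie apart in the mouse genome, except for Arpc1a and Arpc1b, which are neighbors. In GENCODE M21 on GRCm38, Actr2 is at chr11:20062304-20112913 on the minus strand, and Actr3 is at chr1:125392905-125435727 on the minus strand. Arpc2 (chr1:74236084-74268209) and Arpc5 (chr1:152766542-152775597) share chromosome 1 with Actr3 and run on the plus strand. Arpc1a (chr5:145083830-145108761), Arpc1b (chr5:145114215-145130705) and Arpc3 (chr5:122391878-122414184) are on the plus strand of chromosome 5. Arpc4 is at chr6:113378115-113390448 and Arpc5l at chr2:39005348-39015877, both on the plus strand, and Was is at chrX:8081453-8090498 on the minus strand.

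RefSeq promoter windows (GRCm38.p6) were matched for 9 of the 10 genes, all but Arpc5l. The 250 bases before each start were searched on both strands for CCGGAAG, the core of a site type bound by ETS family factors and common near starts of housekeeping genes. It was present in 5 of the 9 windows, those of Actr2, Actr3, Arpc1a, Arpc3 and Arpc4, compared with 6.91% of 32851 windows of the same length. The member windows had a GC content of 51.2% to 74.4%, and of the 17890 windows with at least 51.2%, 10.8% held the motif. This sets only a lower bound on GC, and no rate was taken for windows matched more closely. The Arpc4 window overlaps an annotated exon of Tada3, so its match cannot be assigned to Arpc4 alone. The Arpc1a window overlaps an annotated exon of Arpc1a itself, and the 211 bases before that exon do not hold its match. Of the 5 genes with the motif, 4 were lower in KO and Arpc1a was not called, and of the 4 without it, Arpc1b, Arpc2 and Arpc5 were lower and Was was not called. The sequences of the actin-like pair are printed because this pair forms the seed of the branch, and that of Arpc3 because its motif lies next to the start. That of Was is printed as the gene outside the complex and without a match to this exact motif. The printed sequences read 5′ to 3′ toward the start, with the motif in capitals, and stop before any annotated exon. The Actr2 stretch is chr11:20112952-20113201 (minus strand), that of Actr3 is chr1:125435728-125435977 (minus strand), that of Arpc3 is chr5:122391628-122391877 (plus strand), and that of Was is chrX:8090499-8090741 (minus strand).
Actr2: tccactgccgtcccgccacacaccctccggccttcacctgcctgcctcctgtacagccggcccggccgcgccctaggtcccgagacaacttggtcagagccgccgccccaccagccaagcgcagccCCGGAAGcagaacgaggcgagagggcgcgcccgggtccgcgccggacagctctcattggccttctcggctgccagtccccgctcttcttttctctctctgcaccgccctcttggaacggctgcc
Actr3: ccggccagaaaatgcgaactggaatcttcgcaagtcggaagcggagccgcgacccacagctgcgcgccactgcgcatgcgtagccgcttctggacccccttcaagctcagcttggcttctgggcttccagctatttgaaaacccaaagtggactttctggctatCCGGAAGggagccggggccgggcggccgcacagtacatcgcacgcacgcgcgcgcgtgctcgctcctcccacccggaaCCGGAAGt
Arpc3: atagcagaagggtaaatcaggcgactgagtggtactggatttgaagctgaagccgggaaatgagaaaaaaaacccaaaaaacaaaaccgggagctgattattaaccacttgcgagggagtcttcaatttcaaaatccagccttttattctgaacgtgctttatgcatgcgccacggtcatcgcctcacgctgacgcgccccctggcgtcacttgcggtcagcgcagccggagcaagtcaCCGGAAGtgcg
Was: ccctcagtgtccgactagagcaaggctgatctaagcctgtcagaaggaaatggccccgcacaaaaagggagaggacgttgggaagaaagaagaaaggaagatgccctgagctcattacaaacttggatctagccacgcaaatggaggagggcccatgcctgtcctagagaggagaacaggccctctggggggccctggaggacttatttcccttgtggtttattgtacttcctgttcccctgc
The Actr2 stretch has a single copy of the motif near its middle, and the Actr3 stretch has 2 copies, the second of them ending 1 base before the gene. A match describes these letters and does not show a bound site. Other forms of ETS sites were not searched for, so a stretch without a match may still hold one.

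Zfp335 RNA was 120.1 ± 4.67 in the WT and 14.8 ± 0.451 in the KO libraries (mean and SD of 3 libraries, in CPM, the counts of a gene scaled to a common library size), so the libraries followed their labels. The libraries held 133283969 to 209041812 counts, and each of the 10 genes had at least 7953 counts in every library. Of the 17307 genes with enough counts to be tested, 24.1% passed an adjusted p of 0.05, 12.1% with lower and 12% with higher values in KO. With library totals as the only scaling, the split was 2575 lower and 1622 higher in place of 2088 and 2082. The Treg genes Foxp3 (1136 and 1052 CPM in WT and KO), Il2ra (479.6 and 433 CPM) and Cd4 (687 and 703 CPM) were high in both groups, although of 7 Treg markers 2 fell (Foxp3 and Il2ra) and 2 rose (Ctla4 and Tnfrsf18). RNA of other blood cells differed between them: the summed CPM of 5 red cell markers was 36.5 to 43.4 in WT and 1.81 to 2.31 in KO, with 5 of 5 markers lower. For 6 neutrophil markers it was 12.6 to 17.2 and 0.514 to 0.964, with 5 lower, for 6 B cell markers 57.9 to 63.1 and 27.7 to 29.1, with 6 lower, and for 7 myeloid markers 50.2 to 54.8 and 34.6 to 36.1, with 3 lower. The 5 markers of CD8 T and NK cells summed to 15.8 to 17.2 and 15.3 to 16.8 CPM, with 0 called, and of 4 platelet markers (3.46 to 4.15 and 4.57 to 5.09 CPM) 1 had enough counts to be tested and was higher. No marker was at 0 in all libraries. White blood cells also use the Arp2/3 complex. The part of these cells in the differences of the Arp2/3 genes was not tested. Xist, the RNA that coats the inactive X chromosome in female cells, was at 0.272 ± 0.132 CPM in the WT and 134.6 ± 10.4 CPM in the KO libraries (SD, n = 3), while the Y-linked gene Ddx3y was at 98.3 to 105 CPM in WT and 76.6 to 80.0 CPM in KO, and of 5 sex-linked RNAs 1 was higher and 3 were lower. The Y-linked gene Eif2s3y did not differ (46.6 and 46.9 CPM in WT and KO). Every KO library thus held both Xist and Y-linked RNA, and whether these libraries mixed female and male mice was not tested. A difference in the sex of the mice, or in their mix, can therefore not be told apart from the deletion. This holds for any gene compared here, X-linked or autosomal.

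Most of the complex was slightly lower in KO Tregs. All 10 genes passed the filter on low counts, and 8 of them, all subunits, fell in KO with an adjusted p under 0.05 (edgeR quasi-likelihood test, Benjamini-Hochberg adjustment over all genes), against 12.1% of all genes tested. None was higher, and Arpc1a and Was did not pass. The changes were small: Arpc2 fell by 7.21%, Arpc5 fell by 14.0% and the other called subunits lay between them. Of the 10 genes, 0 reached the 1.5-fold change of the study's own cutoffs, which 6.95% of all genes passed. The median log2 fold change of the 10 genes was -0.15, and that of all genes tested was -0.0042. Highly expressed genes were called more often: among the 5740 genes whose average log2 CPM was 5 or more, where all 10 genes fall, 35.1% were called, and 13.5% were lower. In the same 8 genes every KO library was below every WT library and in Arpc1a every KO library was above, where 38.3% of all genes had groups without overlap (19.1% with KO lower). Together the 10 genes took 0.280% to 0.299% of the counts in the WT libraries and 0.257% to 0.260% in the KO libraries. In bulk samples, fewer cells that make an RNA and less of it per cell cannot be told apart.

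The count of 8 rested on all 6 libraries. It was 9, 5 or 6 when WT replicate 1, 2 or 3 was left out, and 5, 4 or 5 when KO replicate 1, 2 or 3 was. The number of genes called in the whole table varied too, from 2740 without WT replicate 2 to 4996 without WT replicate 1. The direction of each of the 10 genes stayed as it was in these 6 fits. The SD over the libraries was larger in WT than in KO for 8 of the 10 genes and larger in KO for Arpc1a and Was. WT replicate 1 was the lowest WT library for 6 of them and WT replicate 3 the highest for 8. The widest range within WT was 19.2% of the mean, for Arpc3, and the widest within KO was 6.93%, for Was.

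**Figure D1:**
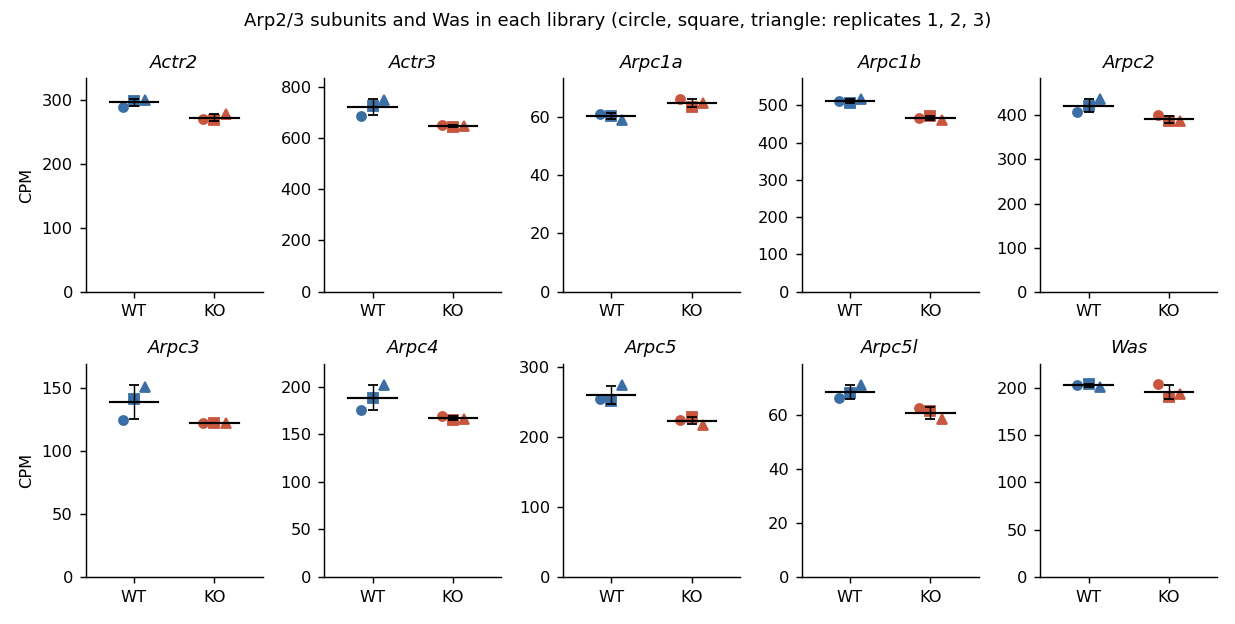
Expression (CPM on TMM-scaled library sizes, axis from 0) of the 9 Arp2/3 subunit genes and Was in the 3 WT (blue) and 3 KO (red) libraries, with a circle, square and triangle for replicates 1, 2 and 3, a horizontal line at the mean and bars of 1 SD. In 8 panels all KO points lie below all WT points, by a narrow margin for Arpc2 and Arpc3, while for Arpc1a they lie above and for Was they overlap.

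Of the actin-like pair, Actr2, the subunit that joins the daughter filament beside Actr3, was measured at 289.6, 298 and 300.1 CPM in WT replicates 1, 2 and 3 and at 269.7, 269 and 278 CPM in the KO replicates. The groups did not overlap, and KO replicate 3 came closest to WT. The mean fell from 296 ± 5.56 to 272 ± 5.20 CPM (SD, n = 3 in each group), so that it fell by 8.02%, a log2 fold change of -0.12 (standard error, SE, 0.032, 95% interval -0.19 to -0.051, edgeR adjusted p = 0.0148). Of the genes tested, 42.8% changed by less. The call was lost when WT replicate 2 was left out (log2 fold change -0.11, edgeR adjusted p = 0.0745), and likewise for KO replicate 1 (-0.11, edgeR adjusted p = 0.0755) or KO replicate 2 (-0.11, edgeR adjusted p = 0.0950). With the trend on GC content removed from each library, the log2 fold change was -0.080 (edgeR adjusted p = 0.0398), and the same correction fitted together with the replicate number also ended the call.

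Actr3, its partner in the pair, was at 687, 724 and 749.6 CPM in the WT libraries and at 649, 643 and 647 CPM in the KO libraries. The KO libraries lay within a narrow band, and WT replicate 1 was the nearest to it. The mean fell from 720.2 ± 31.6 to 647 ± 3.27 CPM (SD, n = 3), with a log2 fold change of -0.16 (SE 0.035, edgeR adjusted p = 0.00621), and the gene stayed below an adjusted p of 0.05 under all 18 alternatives. Reads of Actr3 are not fully its own: 26.3% of its 50-base stretches also occur in other annotated genes, 25.4% in the processed pseudogene Gm8822, which is not a row of the count table. For Actr2 the shared portion was 0.504%. The log2 ratio of Actr2 to Actr3 was -1.28 ± 0.038 in WT and -1.25 ± 0.026 in KO (SD, n = 3). The difference was 0.034, and the groups overlapped (exact two-sided permutation test, p = 0.3, adjusted over 4 ratios 0.4). Its size rested on single libraries: it was 0.052 without WT replicate 1, 0.015 without WT replicate 3 and 0.019 without KO replicate 3 (exact permutation p = 0.1, 0.6 and 0.6). This test cannot give a p below 0.1 with 3 against 3 libraries.

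Arpc2 and Arpc4 encode the central scaffold that holds the actin-like pair and touches the mother filament. Arpc2 was at 407, 421 and 437 CPM in WT and at 401, 387 and 386 CPM in KO. KO replicate 1 lay just under the lowest WT library, and the mean fell from 422 ± 15.1 to 391 ± 8.41 CPM (SD, n = 3). Its log2 fold change of -0.11 (SE 0.035, edgeR adjusted p = 0.0394) was the smallest among the called subunits. Only 1 of the 6 fits with a library left out kept the call, the one without WT replicate 1. The edgeR adjusted p was 0.120 or 0.0988 when WT replicate 2 or 3 was left out, and 0.0635, 0.167 or 0.144 when KO replicate 1, 2 or 3 was, with log2 fold changes from -0.13 to -0.081 over the 6 fits.

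Arpc4 was at 176, 188 and 202 CPM in WT and at 169, 165 and 166 CPM in KO, so that WT replicate 1 was again the WT library nearest to KO. Its mean fell from 189 ± 13.1 to 167 ± 1.99 CPM (SD, n = 3), with a log2 fold change of -0.18 (SE 0.044, edgeR adjusted p = 0.0111). Without KO replicate 2 the adjusted p was 0.0600 at a log2 fold change of -0.17. Arpc4 shares 12.2% of its exon bases with Ttll3 on the same strand, and Ttll3 itself was lower in KO (59.0 ± 3.17 and 50.5 ± 1.22 CPM, log2 fold change -0.23, edgeR adjusted p = 0.00258). Reads in that stretch cannot be assigned to one of the genes, and their part in the change was not tested.

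At the Arpc1 position, one paralog was lower in KO and the other did not pass the test. Arpc1b, the form that dominates in blood cells and whose loss in people causes an immunodeficiency, was at 512, 506 and 517 CPM in WT and at 467, 470.4 and 459.6 CPM in KO. These are tight groups with a gap between them, and the mean fell from 511 ± 5.87 to 466 ± 5.51 CPM (SD, n = 3), a log2 fold change of -0.14 (SE 0.030, edgeR adjusted p = 0.00524) that was called under all 18 alternatives. Arpc1a, the widely expressed form, was at 61.2, 60.6 and 59.1 CPM in WT and at 66.3, 63.5 and 64.8 CPM in KO. All KO libraries were above all WT libraries, as for 19.3% of all genes, but at a log2 fold change of 0.11 (SE 0.037, 95% interval 0.025 to 0.19) the edgeR adjusted p was 0.0574. DESeq2 called it (adjusted p = 0.0311), as did edgeR without WT replicate 1 (adjusted p = 0.0330), and the adjusted p ranged from 0.0311 to 0.198 over the alternatives.

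The log2 ratio of Arpc1b to Arpc1a in each library compares the forms without any scaling between libraries. It was 3.06, 3.06 and 3.13 in WT and 2.82, 2.89 and 2.83 in KO. The groups did not overlap, and the difference of -0.24 had the smallest p that 3 against 3 libraries allow (exact two-sided permutation test, p = 0.1, adjusted over 4 ratios 0.4). It was between -0.26 and -0.22 with any 1 library left out. Per kilobase of exon, Arpc1b made up 81.0% ± 0.412 of the Arpc1 transcripts in WT and 78.3% ± 0.456 in KO (SD, n = 3), and both forms together went from 123 ± 0.922 to 116 ± 1.07 CPM per kilobase. Arpc1b overlaps Pdap1, on the opposite strand, over 18.2% of its exon bases, and no source used here says whether strand was used when reads were counted, so reads of these genes may be mixed. Pdap1 was at 76.6 ± 1.88 and 78.9 ± 2.24 CPM (log2 fold change 0.042, edgeR adjusted p = 0.474). The processed pseudogene Gm5637, also not a row of the table, holds 6.31% of the 50-base stretches of Arpc1b.

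Arpc3 encodes a small subunit that binds Actr3 and steadies the branch. It was at 124, 141 and 151 CPM in WT and at 122.0, 122.4 and 122.3 CPM in KO. The KO libraries were almost equal, whereas WT replicate 1 lay close to them and WT replicate 3 far above. The mean fell from 139 ± 13.5 to 122 ± 0.194 CPM (SD, n = 3), with a log2 fold change of -0.18 (SE 0.057, edgeR adjusted p = 0.0373). The size of the change depended on these WT libraries: it was -0.26 without WT replicate 1 (edgeR adjusted p = 3.91e-05) and -0.12 without WT replicate 3 (edgeR adjusted p = 0.0855). The call was also lost without WT replicate 2 (adjusted p = 0.126) and without KO replicate 1 (0.109), KO replicate 2 (0.0960) or KO replicate 3 (0.0988), with no filter on low counts (0.0554) and with the GC trend removed (0.0628).

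Arpc5 and Arpc5l encode the small subunit that tethers Actr2 to the rest of the complex. Arpc5, the more abundant form, was at 255, 251 and 274 CPM in WT and at 225, 228 and 218 CPM in KO, with a clear gap between the groups. The mean fell from 260.1 ± 12.5 to 223 ± 5.22 CPM (SD, n = 3). Its log2 fold change of -0.22 (SE 0.039, 95% interval -0.30 to -0.13, edgeR adjusted p = 0.00111) was the largest of the 10 in this fit and 61.3% of all genes changed by less, and it was called under all 18 alternatives. Arpc5l was at 66.4, 68.2 and 71.3 CPM in WT and at 62.5, 61.6 and 58.5 CPM in KO, with no overlap, and fell from 68.6 ± 2.49 to 60.9 ± 2.11 CPM (SD, n = 3; log2 fold change -0.17, SE 0.042, edgeR adjusted p = 0.00920). Without KO replicate 3 its adjusted p was 0.0594 at a log2 fold change of -0.14. The groups overlapped in the proportion of the forms. The log2 ratio of Arpc5 to Arpc5l was 1.92 ± 0.037 in WT and 1.88 ± 0.027 in KO (SD, n = 3; exact two-sided permutation test, p = 0.3, adjusted over 4 ratios 0.4). Per kilobase of exon, Arpc5 made up 88.2% ± 0.265 and 87.9% ± 0.202 of the transcripts at this position (SD, n = 3). The difference of the log2 ratio was -0.046 and ranged from -0.067 without WT replicate 2 to -0.030 without KO replicate 1 (exact permutation p = 0.1 and 0.4).

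Was was at 203, 204 and 201 CPM in WT and at 204, 191 and 193 CPM in KO. KO replicate 1 was as high as the WT libraries, and the groups overlapped. The means were 203 ± 1.46 and 196 ± 7.15 CPM (SD, n = 3), and the log2 fold change of -0.050 (95% interval -0.12 to 0.025, edgeR adjusted p = 0.337) was called under none of the 18 alternatives. At the lower end of this interval Was would have decreased by 8.30%, so a change like that of Actr2 lies inside it. Was is the X-linked gene among the 10.

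**Figure D2:**
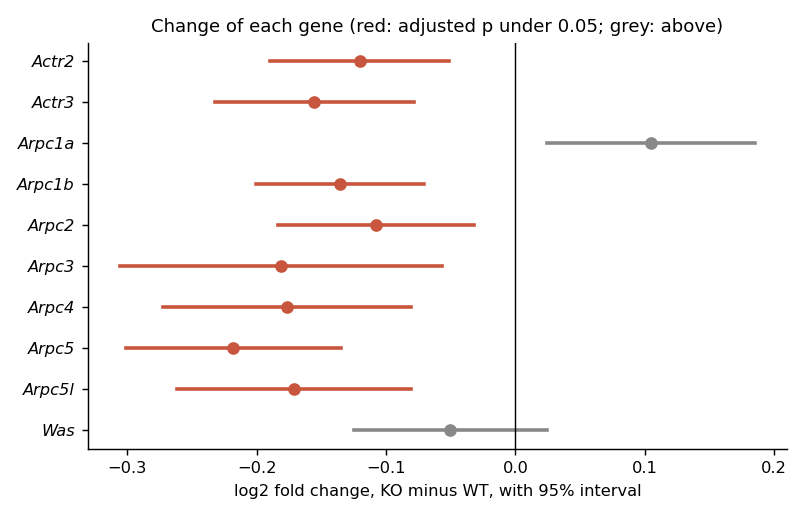
Log2 fold change of each gene (KO minus WT, edgeR) as a point with its 95% interval as a line, red where the adjusted p is under 0.05 and grey where it is not. The 8 red intervals lie below 0 and overlap one another, that of Arpc1a lies above 0 with an adjusted p of 0.0574, and that of Was crosses 0.

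A shift of Actr2 relative to the other subunits was not detectable. The log2 ratio of Actr2 to the geometric mean of the other 8 subunits was 0.49, 0.48 and 0.43 in the WT libraries and 0.45, 0.46 and 0.53 in the KO libraries. These values overlapped, with a difference of 0.0088 (exact two-sided permutation test, p = 0.9, adjusted over 4 ratios 0.9), and its sign changed without WT replicate 3 (-0.0098) or KO replicate 3 (-0.015). The ratio does not depend on the scaling of the libraries.

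Levels of different genes were compared per kilobase of annotated exon. In WT, Arpc2 was the highest at 208 ± 7.44 CPM per kilobase, followed by Actr3 at 156 ± 6.82, Arpc5 at 114 ± 5.48, Arpc1b at 100 ± 1.15, Was at 85.2 ± 0.614, Arpc4 at 81.3 ± 5.64, Actr2 at 56.9 ± 1.07, Arpc3 at 50.2 ± 4.89, Arpc1a at 23.5 ± 0.417 and Arpc5l at 15.3 ± 0.553 (SD, n = 3). The order was the same in KO, from 193 ± 4.14 for Arpc2 to 13.5 ± 0.468 for Arpc5l. Of neighbors in this order, the ranges over the WT libraries overlapped only for Was and Arpc4, and in KO none did. On this scale the Actr2 transcript was well below the level of its partner Actr3 although their proteins enter the complex in equal numbers, and RNA levels do not measure protein. The order depends on the length used. With the longest transcript, Arpc3, with 899 bases in place of 2762, moved from rank 8 to rank 4 at 154 ± 15.0 CPM per kilobase. Arpc1b (165 ± 1.89 in WT) then stood above Arpc5 (136 ± 6.51), in KO as well, and Actr2 and Arpc4 (81.5 ± 1.53 and 83.1 ± 5.76 in WT) overlapped and changed places between WT and KO.

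**Figure D3:**
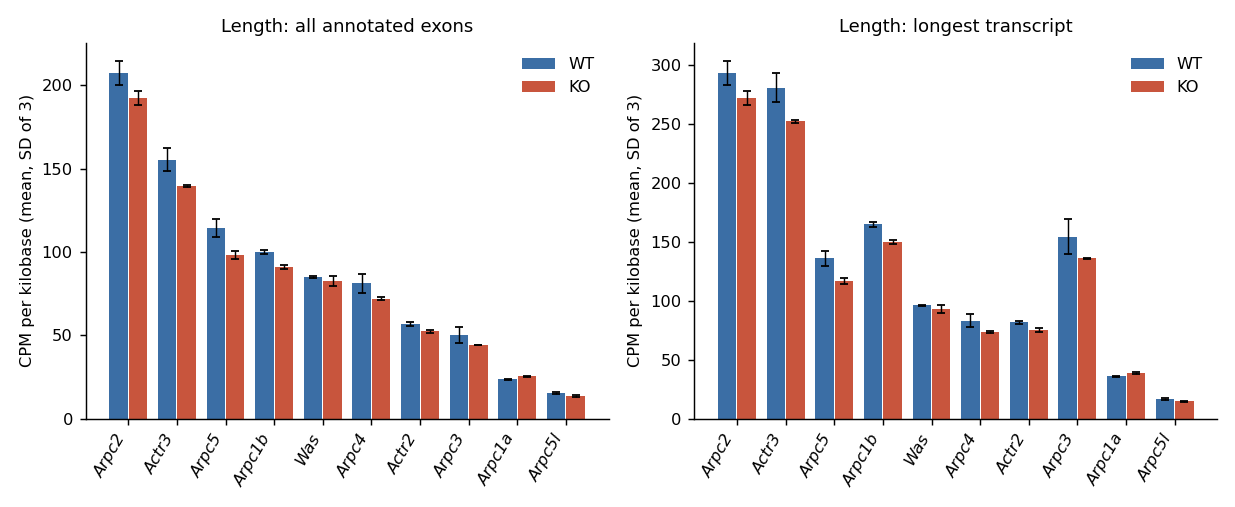
Mean level of each gene in WT (blue) and KO (red) in CPM per kilobase, with bars of 1 SD over 3 libraries and axes from 0, for the length of all annotated exons (left) and of the longest transcript (right), in the order of the left WT means. The KO bar is lower for 9 genes and higher for Arpc1a, and on the right Arpc3 stands far higher, Arpc1b stands above Arpc5, and Actr2 is level with Arpc4.

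Around the complex, 106 genes of the actin machinery in 9 lists were set beside it, of which 105 were tested, all but Wasf3. Of these, 10 were higher and 30 lower (38.1% called, against 24.1% of all genes and 35.1% of those with a log2 CPM of at least 5), and their median log2 fold change was -0.065. Of 9 WASP partners and related activators, 3 were higher and 1 lower (44.4% called), with a median log2 fold change of 0.10. Wasl, the widely expressed relative of WASP, rose from 36.4 ± 0.773 to 43.4 ± 0.561 CPM (SD, n = 3; log2 fold change 0.25, edgeR adjusted p = 0.000519), and Jmy, which also nucleates filaments itself, rose from 38.8 ± 2.05 to 50.6 ± 0.572 CPM (log2 fold change 0.38, edgeR adjusted p = 4.20e-05). Wipf1, which encodes WIP, the partner that protects WASP from degradation, fell from 280.1 ± 8.43 to 252 ± 2.17 CPM (log2 fold change -0.15, edgeR adjusted p = 0.00400).

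Of the WAVE complex, the activator at the leading edge of moving cells, 1 of 10 tested genes was higher and 2 were lower: Wasf2 at 283.7 and 309.6 CPM in WT and KO (log2 fold change 0.13), Cyfip1 at 57.4 and 52.5 CPM (-0.13), and Wasf1 at only 0.220 and 0.0733 CPM (-1.64). Of the WASH complex and retromer, which use Arp2/3 on endosomes, 1 of 10 was higher, Washc1 at 73.3 and 79.9 CPM (0.12), although the median of the list was -0.089. The calls in this list changed with the scaling, with 0 higher and 1 lower under upper-quartile factors. Under library totals or quantile normalization 0 were higher and 2 lower, and without WT replicate 1 there were 1 higher and 5 lower. The log2 fold change of Washc1 itself stayed positive, from 0.093 to 0.16 over the alternatives. Of 9 genes listed as inhibitors and branch removers, with the coronin family counted among them, 0 were higher and 2 lower. Those lower were Gmfb (49.3 and 42.3 CPM, -0.22), whose product takes branches apart, and the coronin gene Coro7 (248 and 229 CPM, -0.12). The shares called were 30% for the WAVE complex, 10% for WASH and retromer and 22.2% for the inhibitor list. All lie below the 35.1% of highly expressed genes, so these counts are no result about the lists. The inhibitor Arpin was at 0.0494 and 0.0982 CPM, too low to compare (95% interval of the log2 fold change -0.995 to 2.60). Actr3b, a paralog of Actr3 listed on its own, fell from 2.67 ± 0.159 to 1.88 ± 0.242 CPM (SD, n = 3; log2 fold change -0.50, edgeR adjusted p = 0.0156).

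Among genes of the actin pool itself, most of those called were lower in KO. Of 16 genes for actin monomers, cofilin and capping, 9 were lower and 1 higher (62.5% called), with a median log2 fold change of -0.17, where 12.1% of all genes tested were lower and 12% higher. Actb, cytoplasmic beta actin, fell from 2716 ± 97.3 to 1893 ± 48.4 CPM (SD, n = 3; log2 fold change -0.52, edgeR adjusted p = 2.49e-07), and Tmsb4x, which encodes the monomer-binding thymosin beta 4, from 2105 ± 44.1 to 1706 ± 40.6 CPM (log2 fold change -0.30, edgeR adjusted p = 1.80e-05). Twf1, an actin monomer-binding protein, rose (35.2 and 42.7 CPM, log2 fold change 0.28). Among 11 formins and Ena/VASP elongators, which build unbranched filaments and of which 27.3% were called, close to the share of all genes, 2 were higher, Enah (1.05 and 2.46 CPM, log2 fold change 1.22) and Fmnl3 (136 and 162 CPM, 0.25), and 1 was lower, Daam1 (8.99 and 7.39 CPM, -0.29). Of 18 crosslinkers, ERM proteins and myosins, 8 were lower and 1 was higher (50% called, against 35.1% of highly expressed genes), with a median of -0.098. Of those lower, Myo1f (78.3 and 48.7 CPM, -0.69) and the crosslinker Flna (1567 and 1273 CPM, -0.30) had the smallest adjusted p, and the one higher was Myo9b (351 and 378 CPM, 0.11). Tmsb4x and Flna are X-linked. Leaving out WT replicate 2 ended the calls of Wasf2, Cyfip1, Wasf1, Washc1, Coro7, Daam1, Myo9b and Actr3b, and each of these also lost its call without at least 1 KO library. Wasf2, Washc1 and Myo9b were also not called with upper-quartile factors, library totals or quantile normalization. Over all alternatives the adjusted p of these genes reached between 0.0721 (Actr3b) and 0.363 (Myo9b), without a change of direction. Myeloid cells and neutrophils also make much of this actin machinery, and the summed CPM of their markers fell in the same libraries. Of these, 3 of 7 myeloid and 5 of 6 neutrophil markers were called lower. The myeloid marker Csf1r went the other way (8.80 and 10.3 CPM in WT and KO, not called). The part of these cells in these counts was not tested.

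**Figure D4:**
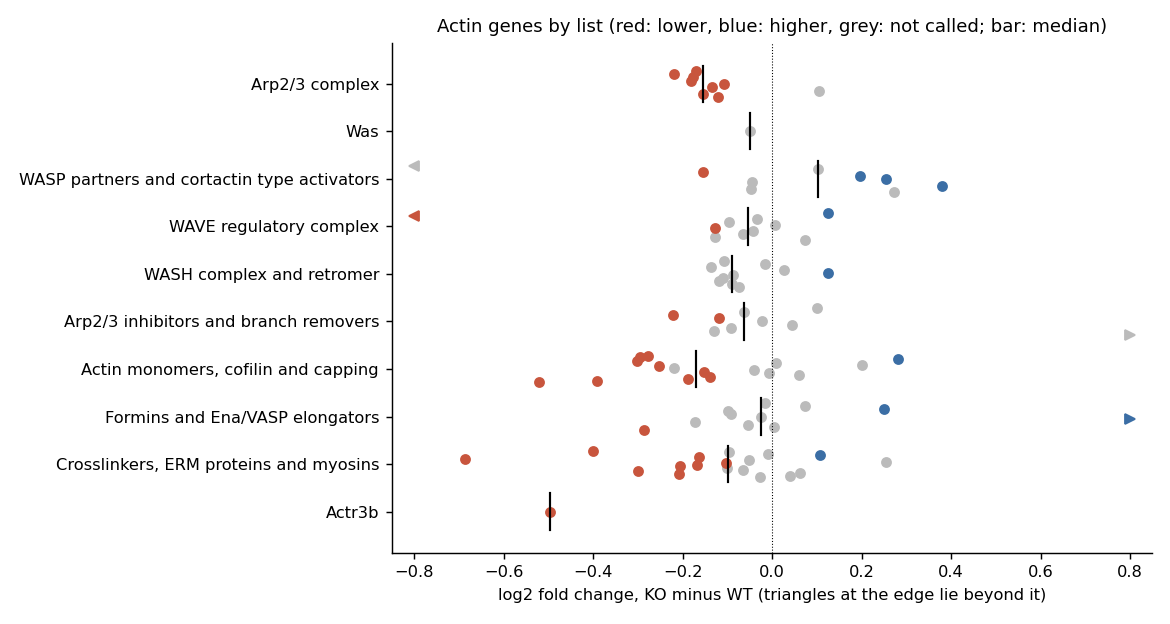
Log2 fold change (KO minus WT, edgeR) of each tested gene in the Arp2/3 complex, of Was, and of the genes in 8 of the 9 lists around it, with genes at an adjusted p under 0.05 in red (lower) or blue (higher), other genes in grey, and a bar at each list's median. Red points dominate in the Arp2/3 complex (8 of 9) and in the list of actin monomers, cofilin and capping (9 of 16), where Actb lies farthest left at -0.52, and the median of the WASP partners lies to the right of 0.

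The genes whose profile over the 6 libraries was most like that of Actr2 were found by the root mean square difference of centered log2 CPM among 5739 genes whose average log2 CPM was 5 or more. They were Rfk (riboflavin kinase, 0.011), Cbx1 (a heterochromatin protein, 0.013), Cpsf2 (a factor of mRNA 3′ end cleavage, 0.013), Cdc42 (the GTPase that opens WASP, 0.013) and Msn (moesin, X-linked, which links actin to the membrane, 0.013). As they were picked for this likeness, their own lower values in KO carry no further weight. The other subunits were not among the nearest. Actr3 came at rank 203 with a difference of 0.031, Arpc1b at rank 210 and Arpc2 at rank 254, whereas Was came at rank 992, Arpc5l at 1009, Arpc4 at 1035, Arpc5 at 1731, Arpc3 at 1980 and Arpc1a, the gene with the opposite sign, at 3954. The measure counts the size of a change and the spread as well as its direction. Was, with overlapping groups and a log2 fold change of -0.050, thus ranked ahead of subunits that fell by more than Actr2.

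Among the ways of processing, the directions of all 10 genes held and several calls did not. Over 18 alternatives, Actr3, Arpc1b and Arpc5 were called each time, Arpc4 and Arpc5l 17 times, Actr2 14 times, Arpc2 13 times, Arpc3 11 times, Arpc1a 2 times and Was 0 times. The log2 fold change of Actr2 ranged from -0.15, with library totals as the only scaling, to -0.080, with the GC trend removed.

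**Figure D5:**
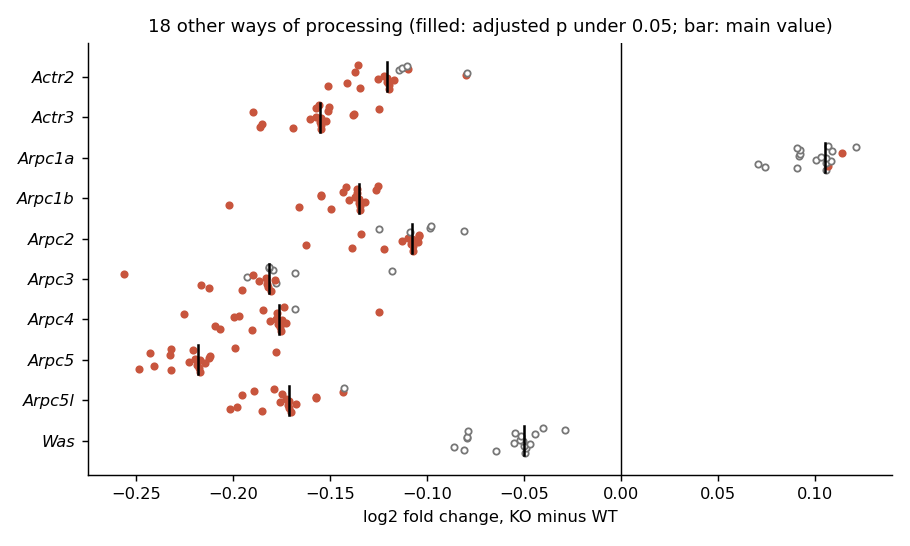
Log2 fold change (KO minus WT) of each gene under 18 alternative scalings, tests, filters, covariates and sets of libraries, filled where the adjusted p is under 0.05 and open where it is not, with a bar at the main value. No point crosses 0, and open points appear for Actr2 (4), Arpc2 (5), Arpc3 (7), Arpc4 (1) and Arpc5l (1) beside all of Was and 16 of 18 for Arpc1a.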

How the data were processed

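Total RNA was made into TruSeq libraries, 3 WT and 3 KO. The table deposited by the authors holds raw counts for each symbol, not normalized, in 32285 rows (40 of them repeat a symbol). The submitters' processing notes name HISAT2, DESeq2 and mm10; for the study's Foxp3Cre bulk libraries the methods name StringTie (TPM) after HISAT2, and how the counts used here were made, and with which strand setting, is not given in the sources used here. Unmapped columns numbered 0, and no sample was left out.

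Genes kept by filterByExpr (17307) were tested in R 4.3.3 with edgeR 4.0.16 (quasi-likelihood F-test, robust, TMM scaling, Benjamini-Hochberg adjustment), with limma 3.58.1 and DESeq2 1.42.0 among the alternatives. The fit was tested on simulated data. CPM used TMM-scaled totals, with factors of 0.987 to 1.01; standard errors came from the F statistic. Ratios within a library were compared by exact permutation. Positions and lengths came from GENCODE M21 and promoters from RefSeq GRCm38.p6, and 97.7% of symbols matched GENCODE.

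The members and lists were chosen with earlier results of these data known. Named genes were Zfp335, the 10 members, up to 2 called genes per direction and list with the smallest adjusted p, Wasl, Wipf1, Arpin, Actr3b, and the 5 genes most like Actr2 (prior count 2). Of the 9 lists around the complex, 1 enters the pooled counts but is not reported here on its own. Foxp3, Il2ra, Cd4, Ctla4, Tnfrsf18, Csf1r, Xist, Ddx3y, Eif2s3y, Tada3 and genes that overlap a member are named outside this rule. Alternatives were other scalings, tests and filters, the replicate number as a block, removal of the GC trend, and leaving out marker genes or each library.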

Additional observations from a re-analysis of the deposited data

How the results depend on the processing

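Directions of the 10 genes did not change under any of the 18 alternatives. When any 1 library was left out, the genes that differ between KO and WT numbered 2740 to 4996, the Arp2/3 complex and Was genes called numbered 4 to 9, the called genes in the lists around Arp2/3 numbered 27 to 54, and the log2 fold change of Actr2 ranged from -0.14 to -0.11. With a filter of 1 CPM in 3 libraries, 572 genes passed the study's cutoffs in place of 1203; this filter tests fewer genes (12110). With the GC trend removed together with the replicate block, Actr2 was at -0.080 (edgeR adjusted p = 0.0656), and the cause was not tested. GC content was known for 98.7% of the genes tested. The log2 ratio of Actr2 to the other subunits ranged from -0.015 to 0.024 over the libraries left out and changed sign without WT replicate 3 (-0.0098) and KO replicate 3 (-0.015). The cause was not tested, and all these values lie within the spread. The replicate numbers did not pair the libraries: the correlations of same-numbered WT and KO deviations were 0.073, -0.026 and 0.0014, and WT replicates 2 and 3 did not correlate best with their own number. With the replicate number as a block (replicate block), 4227 genes differed in place of 4170 and 8 of the 10 genes were called, and Actr2 was at -0.12 (edgeR adjusted p = 0.0152). Other scalings moved the median log2 fold change of all genes at most to -0.035.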
